A study of Homo sapiens with 12 samples.

Results

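The genes described here are 7 genes of steroid hormone synthesis and reception, chosen by symbol from the 21893 genes of the table: *CYP19A1*, *STS*, *HSD17B6*, *SRD5A1*, *HSD11B1*, *NR3C1* and *ESR1*. They were measured by RNA-seq in CCD-18Co, a long-established fibroblast line from normal human colon with the contractile, myofibroblast character of the cells that underlie the gut epithelium. All cells grew in medium with 10% foetal bovine serum, which itself carries steroid hormones, and were treated for 24 h. The 4 groups were vehicle (ethanol and 0.1% BSA in PBS), 100 nM 1,25(OH)2D3 (the active vitamin D hormone), 100 ng/ml recombinant human Wnt3A, and both agents together. A library of each group came from each of 3 independent experiments, so the 12 libraries describe 1 cell line. The comparisons ask how each agent alone, and each agent in the presence of the other, altered these genes.

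Steroid hormones are made from cholesterol in the gonads, the adrenal cortex and the placenta, but many other tissues take up circulating precursors and convert them on the spot. Aromatase, the product of *CYP19A1*, turns androgens into oestrogens. Steroid sulphatase (*STS*) releases free steroids from their sulphated transport forms, the 17β-hydroxysteroid dehydrogenase encoded by *HSD17B6* oxidises androgen metabolites, 5α-reductase type 1 (*SRD5A1*) reduces testosterone to dihydrotestosterone, and 11β-hydroxysteroid dehydrogenase type 1 (*HSD11B1*) regenerates active cortisol from cortisone. *NR3C1* encodes the glucocorticoid receptor and *ESR1* the oestrogen receptor α. Both are nuclear receptors, like the vitamin D receptor that 1,25(OH)2D3 binds.

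The values are CPM, that is read counts scaled to a common library size, and the depth was 5363668 to 6261100 read equivalents per library (median 5942816), so that 1 read was worth 0.160 to 0.186 CPM. The agents acted in the libraries as labelled: *CYP24A1*, the 1,25(OH)2D3-degrading enzyme, had 5 reads in the 3 vehicle libraries and 4337 with 1,25(OH)2D3, and *AXIN2*, a Wnt feedback gene, averaged 2.16 ± 0.30 CPM with vehicle and 19.6 ± 3.68 with Wnt3A (SD, n = 3). Fibroblast and myofibroblast markers were abundant, with a summed level of 22712 to 26097 CPM over 10 genes. Single genes moved in both directions. Of the 10, 3 rose and 1 fell with 1,25(OH)2D3, 2 rose and 1 fell with Wnt3A, and 2 rose and 4 fell with both agents. With 1,25(OH)2D3, *COL1A1* rose from 5802 ± 488 to 8566 ± 620 CPM and *VIM* fell from 6863 ± 556 to 4747 ± 193 (SD, n = 3). *COL3A1*, *PDGFRA*, *FAP* and *THY1* were also called in some comparison. Over all tested genes, 8.54% rose and 6.12% fell with 1,25(OH)2D3, 4.96% and 3.33% with Wnt3A, and 13.3% and 10.7% with both. With the experiment as a replicate block, the fibroblast counts were 3 and 3, 2 and 2, and 4 and 5. The 6 epithelial markers summed to at most 0.377 CPM in any library, and 3 of them had no read. Markers of steroid-producing glands and placenta (7 genes) summed to at most 0.652 CPM, and *LHCGR*, *MC2R* and *CGA* had no read. The 6 leukocyte markers summed to 177 to 215 CPM, nearly all of it *CD68*, which fibroblasts can also express. *PTPRC* had at most 4 reads in a group and *CD3E* none, but *CD14* rose with 1,25(OH)2D3, from 9.22 ± 1.69 to 16.3 ± 2.35 CPM (SD, n = 3; edgeR adjusted p = 0.0014). Of the 6 smooth muscle markers (601 to 935 CPM in sum), *LMOD1* rose (log2 fold change 0.79 ± 0.13, adjusted p = 0.00036) and *SMTN* fell (-0.42 ± 0.08, adjusted p = 0.00032) with 1,25(OH)2D3. The part of these markers in the member results was not tested. Vehicle replicate 2 stood apart in endothelial markers: the 5 genes summed to 16.2 CPM there and to at most 5.84 CPM in the other 11 libraries. Without that library, the fold changes of *CYP19A1* and *SRD5A1* that passed the test still did so.

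*CYP19A1* occupies chromosome 15, 51500254 to 51630795 on GRCh37, on the minus strand, and is read from alternative promoters spread over its long 5′ end. Promoter sequences were taken from RefSeq (GRCh38.p14) and placed on GRCh37 by a unique exact match. Of the 7 *CYP19A1* promoters listed, 3 held the core letters of a vitamin D receptor site (AGGTCA or AGTTCA, on either strand), and the bases before their start sites are shown because *CYP19A1* was the member with the largest change. Capitals mark those letters. Promoter 1 is shown at 15:51535262-51535476, promoter 4 at 15:51547987-51548236 and promoter 7 at 15:51610695-51610944, all on the minus strand. The numbers belong to this list only and follow ascending coordinates. On the minus strand promoter 1 is thus the most downstream window and promoter 7 the most upstream.
CYP19A1 promoter 1: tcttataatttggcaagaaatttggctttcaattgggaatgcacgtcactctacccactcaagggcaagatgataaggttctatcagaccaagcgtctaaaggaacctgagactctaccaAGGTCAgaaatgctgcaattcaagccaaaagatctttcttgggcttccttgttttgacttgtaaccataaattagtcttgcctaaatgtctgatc
CYP19A1 promoter 4: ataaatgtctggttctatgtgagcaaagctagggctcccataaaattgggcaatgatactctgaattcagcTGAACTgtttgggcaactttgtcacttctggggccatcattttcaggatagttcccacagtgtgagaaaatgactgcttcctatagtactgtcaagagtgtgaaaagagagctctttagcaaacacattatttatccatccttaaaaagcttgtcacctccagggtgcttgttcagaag
CYP19A1 promoter 7: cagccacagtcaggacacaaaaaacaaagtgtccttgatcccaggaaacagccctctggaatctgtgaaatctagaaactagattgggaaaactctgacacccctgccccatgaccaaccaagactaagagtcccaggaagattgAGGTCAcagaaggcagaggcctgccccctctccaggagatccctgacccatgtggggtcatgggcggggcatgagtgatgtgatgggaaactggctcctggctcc
The first capital stood at -130, -179 and -105 from the start site. Among 35116 promoter windows of the same length, 13.8% held AGGTCA and 10.4% held AGTTCA, so either match is common. The paired form of the site, with 3 bases between its units, occurred in none of the member promoters listed and in 0.251% of all windows. AGGTCA and AGTTCA are also read by other nuclear receptors, and a match of letters is a description of the sequence, not evidence of binding. The windows listed for *HSD11B1* and *SRD5A1* (1 each) held neither of them, nor the TCF/LEF letters CTTTGAA or CTTTGAT, which 6.86% of all windows held. The letters AGGTCA or AGTTCA also stood in 2 windows each of *STS*, *NR3C1* and *ESR1*. Of these, *STS* and *NR3C1* were not called, and *ESR1* had too few reads to be tested. The TCF/LEF letters stood in 2 windows of *STS*, which was not called with Wnt3A, and in no other member window listed. *HSD17B6* had no window listed.

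Corrected for exon length, the 7 genes covered a wide range of levels. In vehicle cells the mean was 23.6 ± 1.72 CPM per kb for *NR3C1*, 12.1 ± 1.30 for *STS*, 9.12 ± 2.22 for *HSD17B6*, 5.70 ± 0.63 for *SRD5A1*, 1.97 ± 0.90 for *HSD11B1*, 0.067 ± 0.053 for *CYP19A1* and 0.0078 ± 0.013 for *ESR1* (SD, n = 3). The ranges of *STS* and *HSD17B6* overlapped, as did those of *CYP19A1* and *ESR1*, while the other neighbours in this order were separated in all 3 vehicle libraries. The order of the means was the same in all 4 groups. The length is the union of all annotated exons, so a gene that uses a short isoform has a higher true level than this measure gives.

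**Figure D1:**
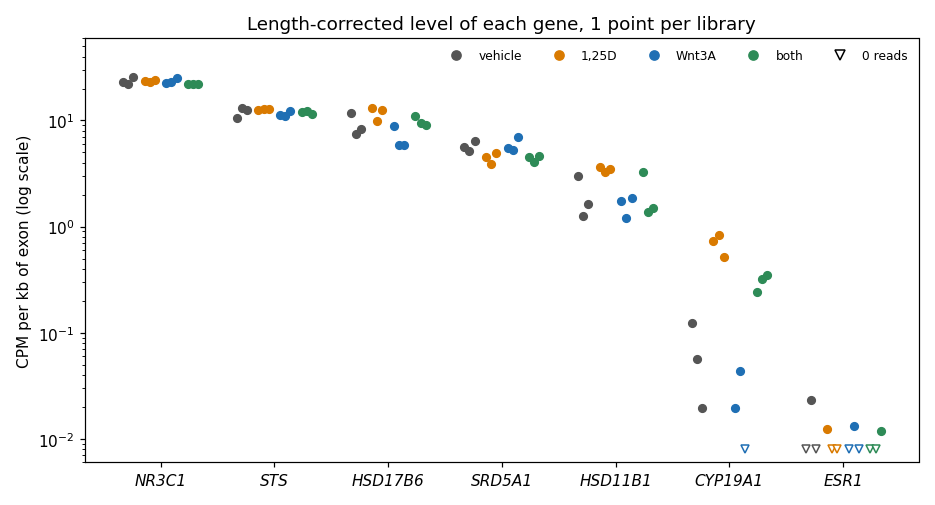
Level of each gene as CPM per kb of exon on a log axis, 1 point per library, coloured by group (1,25D is 1,25(OH)2D3, both is 1,25(OH)2D3 with Wnt3A); open triangles at the lower edge are libraries with 0 reads. *NR3C1* lies near 23 CPM per kb in every group, and *CYP19A1* moves from 0.067 with vehicle to 0.692 with 1,25(OH)2D3.

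With 1,25(OH)2D3 alone, *CYP19A1* rose and *SRD5A1* fell, and the other 4 tested members did not pass the test. These 2 of 6 tested members compare with 14.7% of all 12216 tested genes called in this comparison (8.54% higher, 6.12% lower). *ESR1* had too few reads to be tested. With both agents, again *CYP19A1* was higher and *SRD5A1* lower than with vehicle (2 of 6, against 24% of all genes, 13.3% higher and 10.7% lower), and the same 2 genes were called when 1,25(OH)2D3 was added to Wnt3A (2 of 6, against 13.4%, 7.54% higher and 5.9% lower). Only *CYP19A1* was called when Wnt3A was added to 1,25(OH)2D3 (1 of 6, against 9.23%, 5.2% higher and 4.03% lower). With Wnt3A alone no member was called (0 of 6, against 8.29%, 4.96% higher and 3.33% lower) by edgeR's quasi-likelihood test or by DESeq2, and 1 had an unadjusted p under 0.05. With the experiment as a replicate block the edgeR test called 4 members with 1,25(OH)2D3 (24.2% of all genes), 1 with Wnt3A (13.5%), 2 with both against vehicle (33.4%), 3 with both against Wnt3A (22%) and 2 with both against 1,25(OH)2D3 (14.8%). These comparisons share libraries and are not independent of each other. *CYP19A1* passed the count filter only through the groups with 1,25(OH)2D3, in which it was high. Its place among the 6 tested members therefore depends on that rise.

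**Figure D2:**
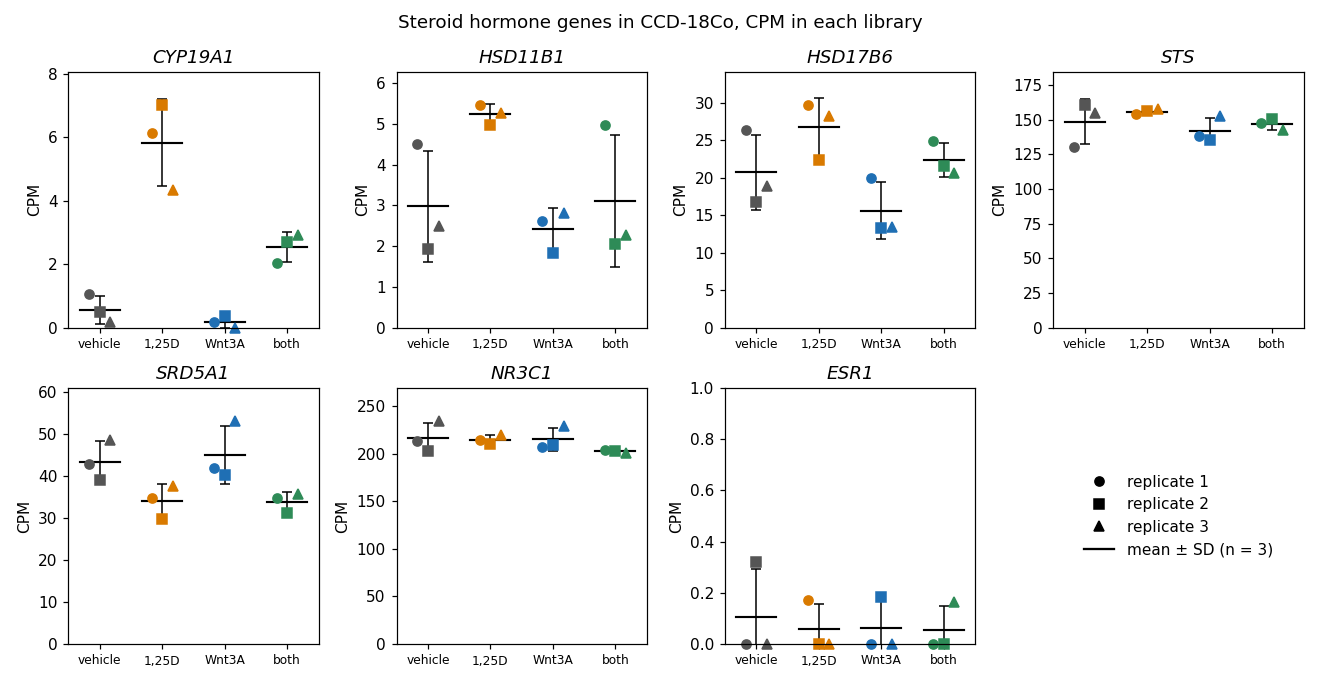
CPM of each member in each of the 12 libraries (1,25D is 1,25(OH)2D3, both is 1,25(OH)2D3 with Wnt3A); symbols give the replicate, and lines and bars the mean ± SD of 3 libraries. *CYP19A1* is at 4.33 to 7.02 CPM with 1,25(OH)2D3 and at most 1.04 CPM with vehicle or Wnt3A, whereas the vehicle values of *STS* and *NR3C1* overlap with those of every other group.

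*CYP19A1*, the aromatase gene, had few reads without 1,25(OH)2D3. The 3 vehicle libraries held 6, 3 and 1 reads (1.04, 0.480 and 0.166 CPM). With 1,25(OH)2D3 they held 36, 38 and 23 reads (6.15, 7.02 and 4.33 CPM). With Wnt3A alone they held 1, 2 and 0 reads, and with both agents 11, 17 and 18 reads (2.03, 2.70 and 2.93 CPM). All 6 libraries with 1,25(OH)2D3 were thus above all 6 without it, and the combination lay between 1,25(OH)2D3 alone and vehicle with no overlap on either side. 1,25(OH)2D3 raised *CYP19A1* 10.2-fold (95% interval 5.75 to 18.0), a log2 fold change of 3.35 ± 0.40 (SE; edgeR quasi-likelihood adjusted p = 9.55e-07). By read counts alone, 97 against 10, the ratio was 10.5 with a wider counting interval of 5.49 to 22.7, so the edgeR interval overstates the precision. The combination was 4.50-fold above vehicle (2.29 to 8.84; edgeR adjusted p = 0.00126), with a counting interval of 2.31 to 10.3 from 46 reads against 10.

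Set against Wnt3A alone, the combination carried 46 reads against 3, a ratio of 15.1 with a counting interval of 4.86 to 76.1 (log2 fold change 3.76 ± 0.61, edgeR adjusted p = 9.55e-05). Set against 1,25(OH)2D3 alone, it carried 46 against 97 reads, and the log2 fold change was -1.18 ± 0.29 (edgeR adjusted p = 0.00733), that is 0.442 of the level without Wnt3A (0.293 to 0.666). *CYP19A1* was lower with both agents than with 1,25(OH)2D3 alone in each of the 3 experiments, at 0.330, 0.385 and 0.676 of that level. This last call was not made by DESeq2 (adjusted p = 0.0647) and was lost without 1,25(OH)2D3 replicate 2 (edgeR adjusted p = 0.0596). DESeq2 with the replicate block gave *CYP19A1* no adjusted p in the comparisons of both agents with Wnt3A or with 1,25(OH)2D3 (unadjusted p = 2.85e-05 and 0.0136). For Wnt3A alone the estimate was -1.59 ± 0.87, from 3 reads against 10, a ratio of 0.307 with a counting interval of 0.0542 to 1.19 (edgeR adjusted p = 0.361). With 10 vehicle reads, a fall with Wnt3A could not be told from no change. *CYP19A1* had at most 6 reads in any library without 1,25(OH)2D3. It passed the count filter (minimum count 10) only through the groups with 1,25(OH)2D3, and vehicle and Wnt3A alone stood below that minimum.

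The interaction, the log2 change of *CYP19A1* with both agents less the sum of the changes with each alone, was 0.41 ± 0.81 with a wide 95% interval of -1.26 to 2.09 (edgeR adjusted p = 1.00). Vehicle replicate 1 held 6 of the 10 vehicle reads, and without it the log2 fold change was 4.08 for 1,25(OH)2D3 and 2.90 for the combination. Without Wnt3A replicate 2, which held 2 of the 3 Wnt3A reads, the change of the combination against Wnt3A was 4.66. On the deposited values taken as they are, without division by the read length, the combination no longer passed against vehicle (edgeR adjusted p = 0.114) or against 1,25(OH)2D3 (adjusted p = 0.572). The annotated exons of *CYP19A1* share 43 bases with a non-coding RNA of the opposite strand, *MIR4713HG*.

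**Figure D3:**
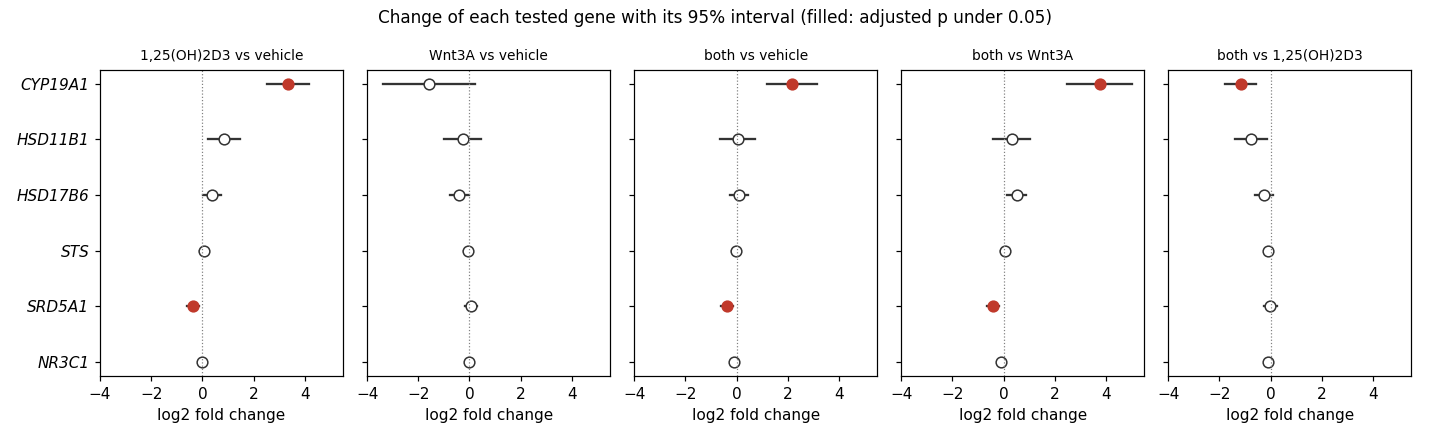
Log2 fold change of the 6 tested members in 5 comparisons, with 95% intervals; filled points have an edgeR adjusted p under 0.05. *CYP19A1* is at 3.35 with 1,25(OH)2D3 and at -1.18 when Wnt3A is added to 1,25(OH)2D3, and *SRD5A1* lies between -0.35 and -0.42 in the 3 comparisons in which it is called.

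*SRD5A1* (chromosome 5, 6633500 to 6669675, plus strand), whose product makes the more potent androgen dihydrotestosterone, moved down with 1,25(OH)2D3. Its level was 42.8, 39.0 and 48.6 CPM in the vehicle libraries and 34.7, 29.7 and 37.7 CPM with 1,25(OH)2D3. It was 41.9, 40.3 and 53.0 CPM with Wnt3A and 34.7, 31.1 and 35.6 CPM with both agents. The groups with and without 1,25(OH)2D3 did not overlap. The fall was 21.7% with 1,25(OH)2D3 alone (log2 fold change -0.35 ± 0.11, edgeR adjusted p = 0.0380), and the combination was lower by 22.2% than vehicle (-0.36 ± 0.11, adjusted p = 0.0204) and by 25.2% than Wnt3A (-0.42 ± 0.11, adjusted p = 0.0132). Within the experiments the level with 1,25(OH)2D3 was 0.810, 0.762 and 0.776 of that with vehicle.

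Wnt3A left *SRD5A1* with an estimate of 0.06 ± 0.11 on the log2 scale (95% interval -0.17 to 0.28), and adding Wnt3A to 1,25(OH)2D3 gave -0.01 ± 0.12 (-0.25 to 0.23). The call with 1,25(OH)2D3 alone was lost with DESeq2 (adjusted p = 0.0721, but 0.0252 with the replicate block) and, with edgeR, without vehicle replicate 1 (0.063), vehicle replicate 3 (0.127), 1,25(OH)2D3 replicate 1 (0.0785) or 1,25(OH)2D3 replicate 2 (0.194), all as adjusted p. The call against vehicle for both agents was lost without vehicle replicate 3 (adjusted p = 0.0917) or replicate 2 of the combination (0.102), and that against Wnt3A without Wnt3A replicate 3 (0.134) or replicate 2 of the combination (0.0906). *FABP4*, an adipocyte marker, followed *SRD5A1* most closely of all tested genes over the 12 libraries (Pearson r = 0.963 of log2 CPM) and fell from 19.4 ± 3.40 CPM with vehicle to 12.6 ± 2.47 with 1,25(OH)2D3 (SD, n = 3). The 5 adipocyte markers summed to 16.2 to 22.8 CPM with vehicle, 9.79 to 14.7 with 1,25(OH)2D3, 19.9 to 26.4 with Wnt3A and 11.9 to 16.1 with both, nearly all of it *FABP4*, while *ADIPOQ* had 1 read and *LEP* none in the 12 libraries. Their part in the *SRD5A1* result was not tested. In bulk RNA, fewer cells of a type and less RNA per cell cannot be told apart. *SRD5A1* has a near-identical pseudogene, and no source used here says how reads that match both were counted.

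*HSD11B1* (chromosome 1, 209859550 to 209908295, plus strand), the cortisol-regenerating enzyme, had 10 to 32 reads per library. Its level was 4.52, 1.92 and 2.50 CPM with vehicle and 5.46, 4.99 and 5.28 CPM with 1,25(OH)2D3. It was 2.61, 1.83 and 2.83 CPM with Wnt3A and 4.98, 2.06 and 2.28 CPM with both agents. The 3 libraries with 1,25(OH)2D3 alone were the highest of the 12, although replicate 1 of the combination was almost level with the lowest of them. 1,25(OH)2D3 gave a log2 fold change of 0.83 ± 0.30 (95% interval 0.20 to 1.45), which did not pass the test (edgeR adjusted p = 0.0690) but did with the experiment as a replicate block (0.81 ± 0.26, adjusted p = 0.0151). Adding Wnt3A to 1,25(OH)2D3 gave -0.79 ± 0.30 (edgeR adjusted p = 0.121), and -0.77 ± 0.26 with the replicate block (adjusted p = 0.0319). DESeq2 with the same block made neither call (adjusted p = 0.137 and 0.228). The combination stood at 0.04 ± 0.34 against vehicle and 0.31 ± 0.35 against Wnt3A, neither of which passed. Without vehicle replicate 1 the estimate for 1,25(OH)2D3 was 1.24 (edgeR adjusted p = 0.0131), and without replicate 1 of the combination the estimate for Wnt3A added to 1,25(OH)2D3 was -1.25 (adjusted p = 0.0153).

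*HSD17B6* (chromosome 12, 57157108 to 57181574, plus strand) encodes an enzyme that oxidises androstanediol back to dihydrotestosterone and epimerises androgen metabolites. Its level was 26.4, 16.8 and 18.96 CPM with vehicle and 29.7, 22.3 and 28.3 CPM with 1,25(OH)2D3. It was 20.0, 13.3 and 13.47 CPM with Wnt3A and 24.9, 21.6 and 20.7 CPM with both agents. Replicate 1 was the highest library in each of the 4 groups, and the vehicle values overlapped with those of every other group. 1,25(OH)2D3 gave 0.38 ± 0.17 on the log2 scale (edgeR adjusted p = 0.140), Wnt3A -0.40 ± 0.18 (adjusted p = 0.241) and the combination 0.11 ± 0.17 against vehicle (adjusted p = 0.684), so no comparison with vehicle passed. Addition of 1,25(OH)2D3 to Wnt3A gave 0.51 ± 0.18 (adjusted p = 0.0641), with no overlap between the 2 groups.

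With the experiment as a replicate block, *HSD17B6* was called higher with 1,25(OH)2D3 (0.37 ± 0.11, edgeR adjusted p = 0.00972), lower with Wnt3A (-0.40 ± 0.12, adjusted p = 0.0169) and higher when 1,25(OH)2D3 was added to Wnt3A (0.53 ± 0.12, adjusted p = 0.000727). DESeq2 with the same block made the last of these calls (adjusted p = 0.0159) but not those with 1,25(OH)2D3 (0.112) or Wnt3A (0.137) against vehicle. Within the 3 experiments the level with 1,25(OH)2D3 was 1.12, 1.33 and 1.49 times that with vehicle, and the level with Wnt3A was 0.758, 0.793 and 0.710 times that with vehicle. The exons of *HSD17B6* share 132 bases with *PRIM1* on the opposite strand, and no source used here says whether strand was used in counting.

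*STS* (chromosome X, 7137472 to 7272682, plus strand), which frees oestrone and dehydroepiandrosterone from their sulphates, differed little between groups. Its level was 130.4, 160.5 and 155.0 CPM with vehicle and 154.0, 156.2 and 157.6 CPM with 1,25(OH)2D3. It was 138.1, 135.4 and 152.8 CPM with Wnt3A and 147.9, 150.7 and 142.2 CPM with both agents. Vehicle replicates 1 and 2 were the lowest and the highest of the 12, so that vehicle overlapped with every other group, while the 3 libraries with both agents lay below the 3 with 1,25(OH)2D3 alone. The largest estimate of the 5 comparisons was -0.09 ± 0.07 on the log2 scale, for Wnt3A added to 1,25(OH)2D3 (edgeR adjusted p = 0.633). The 95% interval for 1,25(OH)2D3 against vehicle ran from 5.61% lower to 16.4% higher, and that for Wnt3A from 14.0% lower to 6.15% higher. *STS* has a near-identical pseudogene, so its reads may be uncertain in the same way as those of *SRD5A1*.

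*NR3C1* (chromosome 5, 142657496 to 142815077, minus strand), the glucocorticoid receptor gene, had the highest level per kb of the members in each group. Its level was 213.0, 203.0 and 233.9 CPM with vehicle and 214.8, 210.5 and 219.4 CPM with 1,25(OH)2D3. It was 207.2, 209.2 and 228.8 CPM with Wnt3A and 203.8, 203.3 and 200.2 CPM with both agents. The 3 libraries with both agents lay below all those with either agent alone, but overlapped with vehicle. No comparison passed the test. The estimates were -0.01 ± 0.07 for each agent alone and -0.10 ± 0.07 for the combination against vehicle (edgeR adjusted p = 0.298), and the 95% interval of the latter ran from 14.9% lower to 2.55% higher.

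*ESR1* (chromosome 6, 152011631 to 152424408, plus strand) had 5 reads over the 12 libraries. The vehicle libraries held 0, 2 and 0 reads, those with 1,25(OH)2D3 1, 0 and 0, those with Wnt3A 0, 1 and 0, and those with both agents 0, 0 and 1. Over all libraries this is 0.0713 CPM, with an exact Poisson interval of 0.0232 to 0.167 CPM. With so few reads, only a large rise in a group could have been detected. The library is a polyA+ measurement of RNA and does not bear on receptor protein.

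Across the 12 libraries *CYP19A1* and *SRD5A1* ran opposite to each other (Pearson r = -0.857 of log2 CPM), and *HSD11B1* and *HSD17B6* ran together (r = 0.777), while *STS* had an r of at most 0.266 with any other member. The libraries share treatments and experiments, so these coefficients describe the set and are given without a test. The genes closest to *CYP19A1* over the 12 libraries were *RFTN1* (r = 0.980), *SERPINB1* (0.9746), *RGS2* (0.974), *TMEM37* (0.972) and *FAH* (0.970), and 1.46% of all tested genes had an r above 0.9 with it. For *SRD5A1* they were *FABP4* (0.963), *SSR3* (0.960), *HMGA2* (0.959), *PPP2R5B* (0.953) and *ANO6* (0.946). For *HSD17B6* they were *C16orf45* (0.961), *VASP* (0.935), *TPM1* (0.921), *VCL* (0.912) and *TRPM2* (0.907). For *HSD11B1* they were *INPP1* (0.894), *A4GALT* (0.890), *IGFBP4* (0.865), *TAPBPL* (0.857) and *IGFBP6* (0.854). The remaining lists were *CHD9* (0.878), *CPEB4* (0.864), *ANXA4* (0.864), *ANKRD17* (0.861) and *TRAPPC8* (0.860) for *STS*, and *RAB18* (0.907), *TMX1* (0.895), *GOLT1B* (0.883), *UBE2B* (0.882) and *STK39* (0.881) for *NR3C1*.

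The enzymes that supply aromatase with substrate from cholesterol were largely absent. Of 16 genes of steroid synthesis, 7 were tested, and none was called with 1,25(OH)2D3 or with Wnt3A (median log2 fold changes 0.04 and -0.12). The shares of all tested genes called were 14.7% and 8.29%. *CYP11A1*, which cleaves the cholesterol side chain, had 3 reads over all 12 libraries, *CYP17A1*, which makes androgens, had 4, and *STAR*, which carries cholesterol into mitochondria, had 17. *HSD3B1* and *HSD3B2* had none, which allows a level of up to 0.0526 CPM over all libraries (upper end of the exact Poisson interval, counting error only). None of these genes was tested, so the lack of calls does not cover them. The 7 tested were *HSD17B1* (6.46 ± 1.06 CPM with vehicle, SD, n = 3), *FDX1*, *FDXR*, *POR*, *CYB5A*, *TSPO* and *STARD3*. *POR*, which passes electrons to aromatase and other microsomal cytochromes P450, was lower with both agents than with vehicle (-0.30 ± 0.09 on the log2 scale, edgeR adjusted p = 0.013). With the replicate block, 1 gene of the list fell with each agent alone and 2 with both. The block called 24.2% of all tested genes with 1,25(OH)2D3, 13.5% with Wnt3A and 33.4% with both, in either direction.

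Among 15 genes that interconvert sex steroids, 11 were tested. With 1,25(OH)2D3, 2 rose and none fell (1 fell with the replicate block), where 8.54% of all tested genes rose and 6.12% fell (median log2 fold change 0.24, against 0.0011 over all tested genes), with Wnt3A 1 fell (median -0.05, against -0.0037), and with both agents 3 rose and 1 fell against vehicle (median 0.11, against 0.0017). Over all tested genes, 4.96% rose and 3.33% fell with Wnt3A, and 13.3% rose and 10.7% fell with both. *HSD17B2*, which inactivates oestradiol to oestrone and testosterone to androstenedione, averaged 57.4 ± 4.65 CPM with vehicle, 93.0 ± 7.43 with 1,25(OH)2D3, 42.5 ± 4.82 with Wnt3A and 85.7 ± 5.76 with both agents (SD, n = 3). It rose by 0.70 ± 0.09 with 1,25(OH)2D3 (edgeR adjusted p = 2.5e-06) and fell by 0.43 ± 0.10 with Wnt3A (adjusted p = 0.0038) on the log2 scale. *AKR1C1*, which inactivates progesterone, rose by 1.00 ± 0.12 with 1,25(OH)2D3 (adjusted p = 3.1e-06) and had an estimate of -0.01 ± 0.13 with Wnt3A. Its sequence is very close to that of *AKR1C2*, so its counts are uncertain. *HSD17B14* was higher (0.71 ± 0.19) and *HSD17B10* lower (-0.25 ± 0.08) with both agents than with vehicle, and *HSD17B7* was higher with both agents than with 1,25(OH)2D3 alone (0.97 ± 0.29, adjusted p = 0.030).

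Of 17 genes of steroid hydroxylation, conjugation and transport, 8 were tested, and 4 rose and 1 fell with 1,25(OH)2D3 (median log2 fold change 0.45; 5 rose and 1 fell with the replicate block), while 1 fell with Wnt3A (median -0.15; 1 rose and 2 fell with the replicate block). Over all tested genes, 8.54% rose and 6.12% fell with 1,25(OH)2D3 (median 0.0011), and 4.96% rose and 3.33% fell with Wnt3A (median -0.0037). *SLCO2B1*, a carrier that takes up steroid sulphates such as those cleaved by *STS*, averaged 119 ± 0.66 CPM with vehicle, 272 ± 0.80 with 1,25(OH)2D3, 69.4 ± 9.12 with Wnt3A and 177 ± 3.42 with both agents (SD, n = 3). Its log2 change was 1.19 ± 0.07 with 1,25(OH)2D3 and -0.78 ± 0.08 with Wnt3A, and adding Wnt3A to 1,25(OH)2D3 lowered it by a log2 change of -0.62 ± 0.07 (edgeR adjusted p = 5.5e-07). *PAPSS2* (0.58 ± 0.08) and *PAPSS1* (0.33 ± 0.08), which make the sulphate donor for steroid sulphation, rose with 1,25(OH)2D3. The steroid sulphotransferases *SULT1E1* and *SULT2A1* had no read, and *SULT2B1* had at most 3 in a group. *SULT1A1*, also a sulphotransferase of the list, averaged 5.12 ± 1.00 CPM with vehicle and 6.14 ± 1.29 with 1,25(OH)2D3 (SD, n = 3). Without the block it was not called in any comparison. *CYP1A1*, which hydroxylates oestrogens, rose by 2.35 ± 0.39 with 1,25(OH)2D3 (edgeR adjusted p = 0.0015).

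**Figure D4:**
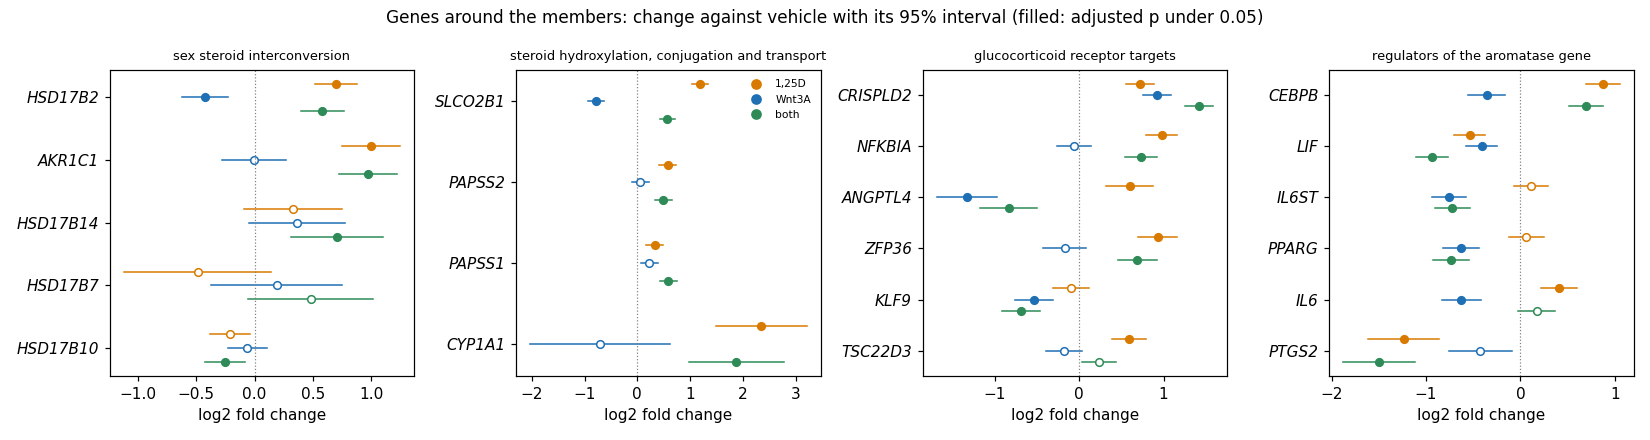
Log2 fold change against vehicle, with 95% intervals, of genes named from 4 lists around the members (1,25D is 1,25(OH)2D3, both is 1,25(OH)2D3 with Wnt3A); filled points have an edgeR adjusted p under 0.05. *HSD17B2*, *SLCO2B1*, *CEBPB* and *IL6* lie above 0 with 1,25(OH)2D3 and below 0 with Wnt3A.

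Around the glucocorticoid genes, the opposing enzyme *HSD11B2*, which inactivates cortisol, had 9 reads over the 12 libraries, 0.128 CPM with an exact Poisson interval of 0.0587 to 0.244. *H6PD*, which supplies the cofactor of the *HSD11B1* product, was not called with either agent alone without the replicate block. With the block it was called higher with 1,25(OH)2D3 (51.7 ± 3.26 CPM with vehicle and 59.8 ± 1.28 with 1,25(OH)2D3, SD, n = 3). Of the 5 genes of glucocorticoid handling, 3 were tested, and *ABCB1*, an efflux pump that carries glucocorticoids, rose with 1,25(OH)2D3 (1.53 ± 0.40 on the log2 scale, edgeR adjusted p = 0.010; 2 of the list rose with the replicate block; median of the 3 genes 0.21). In this comparison 8.54% of all tested genes rose and 6.12% fell, and the block called 24.2% in either direction. *ABCB1* had few reads, 4, 6 and 4 with vehicle and 15, 12 and 11 with 1,25(OH)2D3. It had 11, 9 and 9 reads with Wnt3A, above all vehicle libraries but not called, and 15, 17 and 8 with both agents. Of 17 receptor chaperones and coregulators, all tested, 3 fell with 1,25(OH)2D3 (median of the list -0.04): *HSP90AB1* (-0.29 ± 0.06), *HSP90AA1* (-0.28 ± 0.07) and *FKBP4* (-0.27 ± 0.09). *FKBP5*, a chaperone that dampens glucocorticoid receptor signalling and is itself a receptor target, rose with Wnt3A (0.38 ± 0.10, adjusted p = 0.013) and had an estimate of -0.06 ± 0.10 with 1,25(OH)2D3. *STIP1* was lower (-0.23 ± 0.07) and *NCOR1* higher (0.40 ± 0.08) with both agents than with vehicle. In that comparison 2 genes of the list rose and 4 fell, but 7 rose and 5 fell with the replicate block, and with 1,25(OH)2D3 alone the block gave 2 higher and 4 lower. With both agents 13.3% of all tested genes rose and 10.7% fell, and the block called 33.4% in either direction.

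Of 17 known targets of the glucocorticoid receptor, 16 were tested. With 1,25(OH)2D3, 5 rose and none fell, with Wnt3A 3 rose and 4 fell, and with both agents 5 rose and 5 fell against vehicle (median log2 fold changes 0.01, -0.17 and -0.16). With the replicate block these counts were 5 and 2, 3 and 5, and 5 and 7. Of all tested genes, 8.54% rose and 6.12% fell with 1,25(OH)2D3, 4.96% and 3.33% with Wnt3A, and 13.3% and 10.7% with both. The risers with 1,25(OH)2D3 were *NFKBIA* (0.98 ± 0.09), *ZFP36* (0.93 ± 0.11), *CRISPLD2* (0.72 ± 0.08), *ANGPTL4* (0.60 ± 0.14) and *TSC22D3* (0.59 ± 0.10), on the log2 scale. *ANGPTL4* fell by 1.33 ± 0.17 and *KLF9* by 0.54 ± 0.11 with Wnt3A, and *CRISPLD2* rose by 0.92 ± 0.08 with Wnt3A. These genes respond to many other signals, and *FKBP5*, which is on this list too, had the estimate of -0.06 given above.

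Of 10 genes for other steroid receptors, 5 were tested, and 1 fell with Wnt3A (median log2 fold changes -0.02 with 1,25(OH)2D3, -0.04 with Wnt3A and -0.14 with both). With Wnt3A 3.33% of all tested genes fell. *ESR2*, the oestrogen receptor β gene, had 35 reads over the 12 libraries, 0.499 CPM with an exact Poisson interval of 0.348 to 0.695, and *PGR*, the progesterone receptor gene, had 2 reads. *GPER*, a membrane oestrogen receptor, averaged 6.05 ± 0.80 CPM with vehicle (SD, n = 3) and was lower with both agents than with Wnt3A (-0.62 ± 0.20 on the log2 scale, edgeR adjusted p = 0.042). *PGRMC1*, a haem protein that binds microsomal cytochromes P450, fell by 0.23 ± 0.07 with Wnt3A (adjusted p = 0.044). With the replicate block, 1 gene of this list rose with 1,25(OH)2D3 and, with both agents, 1 rose and 1 fell. Of 15 oestrogen receptor targets 11 were tested and 1 was called with 1,25(OH)2D3, *CCND1*, which fell by 0.48 ± 0.06 (medians of the tested targets 0.0026 with 1,25(OH)2D3, 0.02 with Wnt3A and -0.08 with both). Over all tested genes, 14.7% were called with 1,25(OH)2D3, 6.12% of them as lower. With the replicate block, 2 of these targets rose and 2 fell with 1,25(OH)2D3, and 1 rose and 1 fell with Wnt3A. The block called 24.2% of all tested genes with 1,25(OH)2D3, 13.5% with Wnt3A and 33.4% with both agents, in either direction. *TFF1* and *TFF3*, targets of the receptor in breast cells, had no read, and *MYC* (-0.65 ± 0.15) and *CA12* (-0.49 ± 0.15) were lower with both agents than with vehicle. *CXCL12* was lower with both agents than with 1,25(OH)2D3 (-0.86 ± 0.25).

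Regulators known to act on the aromatase gene in fat, bone, ovary or breast moved in both directions. Of 26 such genes 20 were tested. With 1,25(OH)2D3, 6 rose and 2 fell, with Wnt3A 1 rose and 6 fell, and with both agents 5 rose and 5 fell against vehicle (median log2 fold changes 0.09, -0.18 and -0.05). These counts stand beside the same shares of all tested genes, 8.54% and 6.12%, 4.96% and 3.33%, and 13.3% and 10.7%. With the replicate block 7 rose and 2 fell with 1,25(OH)2D3, and 2 rose and 7 fell with Wnt3A. *CEBPB*, a transcription factor of the aromatase gene in stromal cells, averaged 47.3 ± 2.03 CPM with vehicle, 86.7 ± 11.4 with 1,25(OH)2D3, 36.9 ± 1.03 with Wnt3A and 76.6 ± 2.51 with both agents (SD, n = 3). *IL6*, a cytokine that acts with glucocorticoids on the distal promoter of the gene, averaged 56.3 ± 9.02, 74.6 ± 5.49, 36.3 ± 1.77 and 63.3 ± 1.67 CPM in the same order. Both genes rose with 1,25(OH)2D3 and fell with Wnt3A (log2 changes of 0.87 ± 0.09 and -0.36 ± 0.10 for *CEBPB*, 0.41 ± 0.09 and -0.63 ± 0.10 for *IL6*). *IL6ST*, the signalling receptor of that cytokine family, fell by 0.76 ± 0.09 with Wnt3A, and *PPARG*, which holds aromatase down in fat stroma, fell by 0.63 ± 0.09. *LIF* fell with either agent (-0.54 ± 0.08 and -0.41 ± 0.08), and *PTGS2*, which makes the prostaglandins that induce the gene in breast stroma, fell by 1.23 ± 0.18 with 1,25(OH)2D3. *PTGES*, another prostaglandin synthesis gene of the list, went the other way with 1,25(OH)2D3. It averaged 6.57 ± 0.65 CPM with vehicle, 10.5 ± 1.45 with 1,25(OH)2D3, 3.96 ± 0.55 with Wnt3A and 4.66 ± 0.51 with both (SD, n = 3). *NR5A1*, the ovarian and adrenal activator that reads AGGTCA in the proximal promoter, had no read, and its relative *NR5A2* had 24 reads over the 12 libraries. AGGTCA is also the stretch marked above in promoter 1, the most downstream window listed, so those letters are not particular to the vitamin D receptor.

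No member and no gene of these lists was called for the interaction, for which edgeR called 0% of the 12216 tested genes (18 genes with the replicate block; 354 had an unadjusted p under 0.05, none of them a member). The other members' interactions were -0.51 ± 0.47 for *HSD11B1*, 0.13 ± 0.24 for *HSD17B6*, -0.07 ± 0.16 for *SRD5A1*, -0.08 ± 0.09 for *NR3C1* and -0.02 ± 0.10 for *STS*, on the log2 scale (SE), all with intervals that include 0.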

How the data were processed

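Libraries of polyA+ RNA were made by the authors with a stranded kit, sequenced on a Genome Analyzer IIx (read length 40) and, per the labels, processed with CASAVA 1.8 on GRCh37/hg19. The deposited values are gene-level counts without normalization. No source used here names the gene annotation or says whether strand was used. Because 78.2% to 80.9% of the values from 1 to 400 in each library were exact multiples of 40, and because the variance of 1711 genes with a mean of 1 to 5 reads was 44.9 times the mean before and 1.13 times the mean after division, each value was divided by 40 and rounded, giving read equivalents.

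Genes were kept by filterByExpr (minimum count 10; 12216 of 21893). The test was edgeR 4.0.16 in R 4.3.3 (TMM, robust quasi-likelihood F test, 1 fit of all 12 libraries, no block) with Benjamini-Hochberg adjustment over all tested genes and a threshold of 0.05. The prior count was 0.125 for log2 fold changes and 2 for log2 CPM. Intervals cover 95%. The interaction is the log2 change with both agents less those of each agent alone, added up. Counting intervals are exact and cover counting error only. DESeq2 1.42.0 was an alternative. The study's supplement numbers the experiments. In deviations from the group means (6108 genes) the 18 same-numbered pairs of libraries correlated at 0.238 to 0.538 and the 36 others at -0.419 to 0.0146, so the numbers were taken to pair the samples, and blocked values are given for the members and lists where they change a call or count. Exon lengths and overlaps came from GENCODE v44lift37.

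The members, the gene lists and the tests were chosen with earlier results of these data known. All 7 members are reported in every library. Of each list, up to 6 called genes with the smallest p in any comparison are named, and for each tested member the 5 genes with the highest r. Some list genes are counted but not reported here by name. Genes named beyond this (mainly those with few reads, *H6PD*, *SULT1A1*, *PTGES* and marker genes) were chosen after their values were seen.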

Additional observations from a re-analysis of the deposited data

How the results depend on the processing

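Settings tried in edgeR were other scaling factors, no filter on low counts, only the groups compared, the replicate block and each library left out. DESeq2 and the values not divided by 40 were tried too, and DESeq2 with the block was chosen after seeing the data. Of 711 log2 changes of a member under an alternative, 645 kept the direction and the call of the reported value, 33 changed sign (none past the threshold), 13 lost the call and 20 gained it. The members called with 1,25(OH)2D3 (2) became 1 with DESeq2, 4 without the filter and 4 with the replicate block, and 1 to 3 when a library was left out. The number of all genes called in this comparison moved too, from 1791 of 12216 to 1314 of 11955 with DESeq2. It was 2006 of 17724 without the filter and 2959 of 12216 with the block. With Wnt3A (0) the members called became 1, *HSD17B6*, without the filter and with the block, and 0 to 1 with a library left out (1 without Wnt3A replicate 1). With both agents against vehicle (2) they became 1 on undivided values and 1 to 2 with a library left out. Against Wnt3A (2) the range was 1 to 3 with a library left out, and DESeq2 with the block called *HSD17B6* and *SRD5A1*, since it gave *CYP19A1* no adjusted p. Against 1,25(OH)2D3 (1) they became 0 with DESeq2, 0 with DESeq2 and the block (again with no adjusted p for *CYP19A1*), 0 on undivided values, 2 without the filter, 2 with the block, and 0 to 2 with a library left out. The block changed no other call among the members than those given for *HSD11B1* and *HSD17B6*.

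Estimates near 0 that had not passed the test changed sign. With upper quartile scaling *SRD5A1* stood at 5.06e-06 for Wnt3A added to 1,25(OH)2D3 (log2). With 1 library left out in turn, the log2 changes with 1,25(OH)2D3 ranged from -0.017 to 0.117 for *STS* and from -0.0669 to 0.0353 for *NR3C1*. With Wnt3A they ranged from -0.52 to 0.15 for *HSD11B1*, from -0.0821 to 0.138 for *SRD5A1* and from -0.0612 to 0.042 for *NR3C1*. With both agents against vehicle they ranged from -0.43 to 0.46 for *HSD11B1*, from -0.0242 to 0.321 for *HSD17B6* and from -0.102 to 0.0389 for *STS*. Against Wnt3A *HSD11B1* ranged from -0.15 to 0.55, and against 1,25(OH)2D3 *SRD5A1* ranged from -0.0967 to 0.0718. The interaction ranged from -0.078 to 0.374 for *HSD17B6*, from -0.32 to 1.31 for *CYP19A1*, from -0.0664 to 0.065 for *STS* and from -0.152 to 0.0794 for *SRD5A1*. The causes were not tested. Depth limited *CYP19A1* without 1,25(OH)2D3, where a group held 3 to 10 reads, and *ESR1*.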
